A study of Mus musculus with 4 samples.

Results

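The cells described here are the cells with at least 2 UMIs (unique molecular identifiers, 1 per captured transcript) of Mesp1 in single-cell libraries of mouse gastrulae at 3 stages. There were 717 such cells among 11123, with 283 of 3635 cells at MS-LS (mid to late streak), 330 of 3994 at OB-EB (no bud to early bud) and 104 of 3494 at EHF (early headfold). They are called Mesp1 cells below, and within each library they were set against the 3067, 3160 and 3221 cells with no Mesp1 UMI. Cells with 1 Mesp1 UMI, 285, 504 and 169 per library, fell just outside the rule. The level of Mesp1 itself chose the cells and is given as a description only.

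Mesp1 encodes a basic helix-loop-helix transcription factor that is transiently made as epiblast cells pass through the primitive streak and enter the mesodermal wings. Its descendants include much of the heart, head mesoderm, vasculature and extraembryonic mesoderm. In textbook accounts its expression follows Eomes and T, the T-box factors of the streak, and falls again soon after a cell has left the streak. Its paralogue and neighbour Mesp2 acts in the presomitic mesoderm. Cells that carry the transcript are therefore commonly read as nascent mesoderm, a label that is checked below against other markers.

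Every embryo was TnEGP-CreERT2/+; R26Rtdtomato/R26Rtdtomato and every dam received tamoxifen at 0.08 mg per bw by oral gavage, so all groups share the knock-in and the treatment. CreERT2 was made from the T locus, which leaves 1 unmodified T allele and restricts labelling to cells that made T while tamoxifen was active. Embryos were dissected at E6+21h (MS-LS), E7+3h (OB-EB) and E7+14h (EHF), and tamoxifen had been given at E6+5h for MS-LS, at E6+21h for OB-EB and at E7+7h for EHF. Embryos of a stage were pooled into 1 Chromium 3′ library, so no stage has a replicate and stage cannot be told apart from library.

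The libraries held 17966956, 12181436 and 20376539 UMIs, with medians of 4251, 2620.5 and 5584 UMIs per cell at MS-LS, OB-EB and EHF. An additional EHF table carried the same counts under other names for 21 genes and was taken as the same library. Between pairs of libraries 12 to 18 cell barcodes were shared, and 4, 2 and 0 of the Mesp1 cells had a shared barcode. Without those cells the shares of Mesp1 cells and the counts of genes past the fold stayed close to the values below.

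Mesp1 lies on the minus strand of chromosome 7 from 79792241 to 79793788 (GRCm38, GENCODE vM21), and Mesp2 on the plus strand from 79810727 to 79813439, with 16938 bases between them. Their promoters are shown because Mesp1 chose the cells and Mesp2 was among the genes with the highest ratios at MS-LS, together with that of Frzb, a secreted Wnt antagonist of the nascent mesoderm list that also held the same T-box-like letters. The windows run from 250 bases before to 50 bases after the start of transcription in RefSeq (GRCm38.p6). For Mesp1 that start lies inside the GENCODE span given above, since the annotations differ there. Capitals mark CACACCT, or AGGTGTG where it is on the opposite strand, and CTTTGAT, a Tcf/Lef-like heptamer found in the Mesp1 window alone of these.
Mesp1, chr7:79793541-79793840, minus strand: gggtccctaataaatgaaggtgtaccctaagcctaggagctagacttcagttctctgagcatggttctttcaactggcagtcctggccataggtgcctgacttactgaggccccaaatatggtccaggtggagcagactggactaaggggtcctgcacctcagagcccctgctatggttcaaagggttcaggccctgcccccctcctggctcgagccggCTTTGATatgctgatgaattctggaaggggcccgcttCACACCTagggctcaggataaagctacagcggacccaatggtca
Mesp2, chr7:79810477-79810776, plus strand: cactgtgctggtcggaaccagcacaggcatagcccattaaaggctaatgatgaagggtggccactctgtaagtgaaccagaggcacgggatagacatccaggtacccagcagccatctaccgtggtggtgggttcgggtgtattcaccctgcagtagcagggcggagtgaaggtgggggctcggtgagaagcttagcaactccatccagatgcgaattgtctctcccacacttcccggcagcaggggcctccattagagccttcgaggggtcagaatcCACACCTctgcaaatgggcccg
Frzb, chr2:80447347-80447646, minus strand: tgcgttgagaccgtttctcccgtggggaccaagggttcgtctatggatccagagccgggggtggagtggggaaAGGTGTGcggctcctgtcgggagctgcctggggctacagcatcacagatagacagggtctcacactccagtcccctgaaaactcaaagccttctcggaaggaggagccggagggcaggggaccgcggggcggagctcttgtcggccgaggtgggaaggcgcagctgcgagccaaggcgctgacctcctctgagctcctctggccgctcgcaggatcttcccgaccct
Across 27025 genes with a promoter entry, 1816 (6.72%) held CACACCT on either strand and 1160 (4.29%) held CTTTGAT on either strand. The letters were chosen after these windows had been seen, and a match describes the sequence and not a bound site.

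A smaller share of cells carried at least 2 Mesp1 UMIs at EHF than at the earlier stages, at full depth and at equal depth. Mesp1 cells made up 7.79% of MS-LS cells (95% binomial interval 6.93 to 8.70, Clopper-Pearson), 8.26% of OB-EB cells (7.43 to 9.16) and 2.98% of EHF cells (2.44 to 3.60). The Mesp1 level over all cells was 63.1 UMIs per 1000000 UMIs (CPM; 59.5 to 66.9, exact Poisson) at MS-LS, 116 CPM (110 to 122) at OB-EB and 22.7 CPM (20.7 to 24.8) at EHF. All intervals cover counting error only and not the spread between embryos. Within the Mesp1 cells the level was 458, 694 and 413 CPM, and the highest cell carried 8, 13 and 7 UMIs. Of the Mesp1 cells 136, 192 and 58 had exactly 2 UMIs, and 38, 30 and 11 had 5 or more. The Mesp1 cells held 74.9%, 64.4% and 63.4% of each library's Mesp1 UMIs.

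A cell that is read more deeply reaches 2 UMIs more easily. Mesp1 cells had medians of 5454, 3366 and 6426 UMIs against 4152, 2547.5 and 5576 in the cells with no Mesp1 UMI. The shares were therefore compared after thinning every cell of at least 2000 UMIs to 2000 UMIs, which left out 231, 1055 and 309 cells. At this depth at least 2 Mesp1 UMIs were found in 92 of 3404 cells at MS-LS (2.70%, 2.18 to 3.30), 143 of 2939 at OB-EB (4.87%, 4.12 to 5.71) and 17 of 3185 at EHF (0.53%, 0.31 to 0.85). The intervals of the 3 libraries did not overlap in this draw, and OB-EB was the highest. Over all draws the expected shares were 2.63%, 4.65% and 0.81%, so the draw used gave a low share at EHF. At full depth the shares of MS-LS and OB-EB had overlapped. These shares are over all cells, and libraries differed in cells with extraembryonic ectoderm or visceral endoderm markers. Fewer than 3 markers of each tissue were found in 1857 of 3067, 2567 of 3160 and 2178 of 3221 cells with no Mesp1 UMI. The same held for 223 of 283, 308 of 330 and 89 of 104 Mesp1 cells. The part of this difference in the order of the shares was not tested.

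Free RNA can place a few UMIs in cells that do not make a transcript, so the same share was taken in cells with extraembryonic ectoderm markers, which should lack Mesp1. Among cells with UMIs of at least 3 of 12 extraembryonic ectoderm markers (medians of 6064, 4990 and 7391 UMIs), 8 of 307 (2.61%) had 2 Mesp1 UMIs at MS-LS, 2 of 83 (2.41%) at OB-EB and 0 of 434 at EHF, which allows a share of up to 0.691% (3 counts of the total, as for each count of 0 here). At 2000 UMIs these counts were 2 of 304, 0 of 82 and 0 of 431. Of the cells with at least 3 of 12 visceral endoderm markers, 53 of 1068 (4.96%), 20 of 585 (3.42%) and 15 of 765 (1.96%) had 2 Mesp1 UMIs, and at 2000 UMIs 1.55% (0.89 to 2.50), 1.39% (0.56 to 2.84) and 0.546% (0.15 to 1.39). With at least 6 of the 12 markers, a class added after the data were seen, the counts were 2 of 617, 0 of 315 and 1 of 347, and at 2000 UMIs 0 of 600, which allows 0.5%, 0 of 278, which allows 1.08%, and 0 of 320, which allows 0.938%. At full depth the share over all cells lay above both classes of 3 markers beyond the intervals at MS-LS, above the visceral endoderm class at OB-EB and above the extraembryonic ectoderm class at EHF. At 2000 UMIs it lay above the class of 6 markers beyond the intervals at MS-LS and OB-EB, and of the classes of 3 markers above the visceral endoderm class at OB-EB. At EHF the interval at 2000 UMIs overlapped those of all 3 classes, so a difference from background was not detectable there in this draw. At 3500 UMIs the EHF share (1.61%, 1.17 to 2.15) lay above that of extraembryonic ectoderm cells (0 of 415, exact upper limit 0.885%). It still overlapped the visceral endoderm classes of 3 markers (1.15%, 0.50 to 2.25) and of 6 markers (0 of 298, exact upper limit 1.23%). Among the Mesp1 cells themselves 53, 20 and 15 had at least 3 visceral endoderm markers, and 8, 2 and 0 had at least 3 extraembryonic ectoderm markers. Without these cells the Mesp1 cells numbered 223, 308 and 89. The genes with a ratio of at least 2 to the cells with no Mesp1 UMI then numbered 310, 203 and 548 and those with a ratio of at most 1/2 numbered 1271, 746 and 1226, and shares, T-box classes and the reporter were not computed without them.

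**Figure D1:**
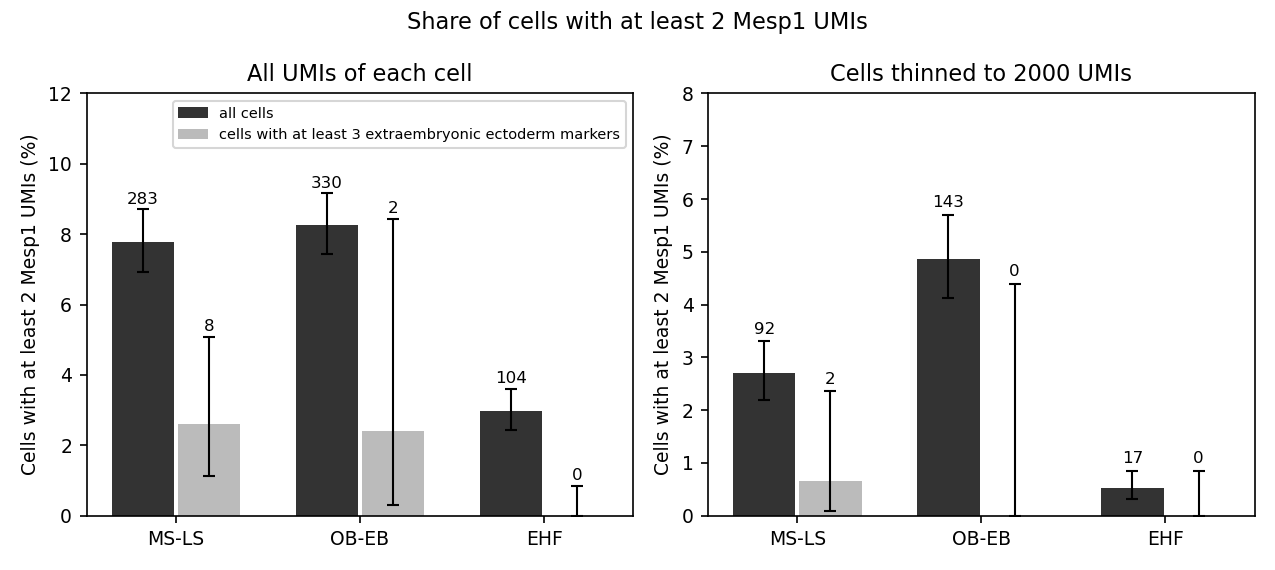
Share of cells with at least 2 Mesp1 UMIs (%) in each library over all cells and in cells with at least 3 extraembryonic ectoderm markers, at full depth and after thinning to 2000 UMIs, with exact 95% binomial intervals. At equal depth the share was 2.70% at MS-LS, 4.87% at OB-EB and 0.53% at EHF, against 2 of 304, 0 of 82 and 0 of 431 extraembryonic ectoderm cells. These are values of 1 draw, and the expected shares over all draws were 2.63%, 4.65% and 0.81%.

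Genes were compared between Mesp1 cells and cells with no Mesp1 UMI of the same library as the log2 ratio of summed CPM, with the exact conditional 95% interval of the ratio of UMI sums. Genes entered when the groups together held 50 UMIs or more. Past the fold means a ratio of at least 2 or at most 1/2. With 1 library per stage no test was made. At MS-LS 295 of 9892 genes (2.98%) were higher past the fold and 1122 (11.3%) lower. At OB-EB 196 of 8816 (2.22%) were higher and 708 (8.03%) lower. At EHF 505 of 11057 (4.57%) were higher and 1216 (11.0%) lower, and 374 (3.38%) and 529 (4.78%) of these had an interval that left out 0. At MS-LS that was so for 289 higher genes (2.92%) and 923 lower ones (9.33%), and at OB-EB for 2.21% and 550 (6.24%) of the genes. Counts for gene lists below are to be read against these shares of all genes. Lists can share genes, such as Lefty2 in the nascent mesoderm and Nodal lists, so counts of different lists are not independent. The cells with no Mesp1 UMI hold extraembryonic tissues. Some leading genes are therefore also given against filtered comparison cells, which lack Mesp1 and have fewer than 3 markers of each extraembryonic list (1857, 2567 and 2178 cells).

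The label of nascent mesoderm was checked against markers other than Mesp1, and these were higher in the Mesp1 cells of each library. All 9 of the other nascent mesoderm genes were higher past the fold at MS-LS (median log2 ratio 2.53, against −0.04 over all genes tested) and at OB-EB (median 1.95, against −0.01), and 7 of 8 were at EHF (median 1.56, against −0.01). With the filtered comparison cells 9 of 9, 8 of 9 and 5 of 8 remained past the fold. Lefty2, a secreted Nodal antagonist induced by Nodal itself, stood at 182 CPM in MS-LS Mesp1 cells against 9.80 CPM, a log2 ratio of 4.21 (3.93 to 4.51), and 43.5% against 2.61% of cells had a UMI. At OB-EB Lefty2 stood at 154 against 19.2 CPM (log2 ratio 3.01, 2.71 to 3.30). With the filtered comparison cells these ratios were 3.68 and 2.77. At EHF it had 10 UMIs in the Mesp1 cells, 14.1 against 1.23 CPM, too few to enter. Lefty2 (chromosome 1, 180893108 to 180899103) and Lefty1 share a run of 161 bases in the last 500 bases of their transcripts. A read within that run matches both genes, and how such reads were counted was not examined. Lefty1 itself stood at 5.40 against 10.7 CPM at MS-LS.

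Snai1, the repressor of E-cadherin that marks ingression, had log2 ratios of 2.96 (2.56 to 3.37), 2.26 (1.78 to 2.74) and 1.84 (1.29 to 2.36) at MS-LS, OB-EB and EHF. Mixl1, a homeobox factor of the streak, had 2.53, 2.28 and 2.34, and Lhx1, a LIM homeobox factor, had 2.39, 1.95 and 2.50. These genes were higher in the Mesp1 cells of every library, and for each the intervals stayed above the fold. Frzb stood at 122 against 19.3 CPM at MS-LS, 203 against 47.0 CPM at OB-EB and 100 against 41.5 CPM at EHF, where its log2 ratio of 1.27 (0.90 to 1.62) became 0.80 with the filtered comparison cells. Pdgfra, the receptor that guides migrating mesoderm, had log2 ratios of 1.78, 1.91 and 1.22. Fgf3 had 2.81 (2.44 to 3.19) at MS-LS and 1.46 at OB-EB, and at EHF its level was 55.0 CPM in Mesp1 cells and 56.4 CPM in the others (log2 ratio −0.04, −0.54 to 0.42). Fgf3 was the listed gene that did not stand higher at EHF.

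**Figure D2:**
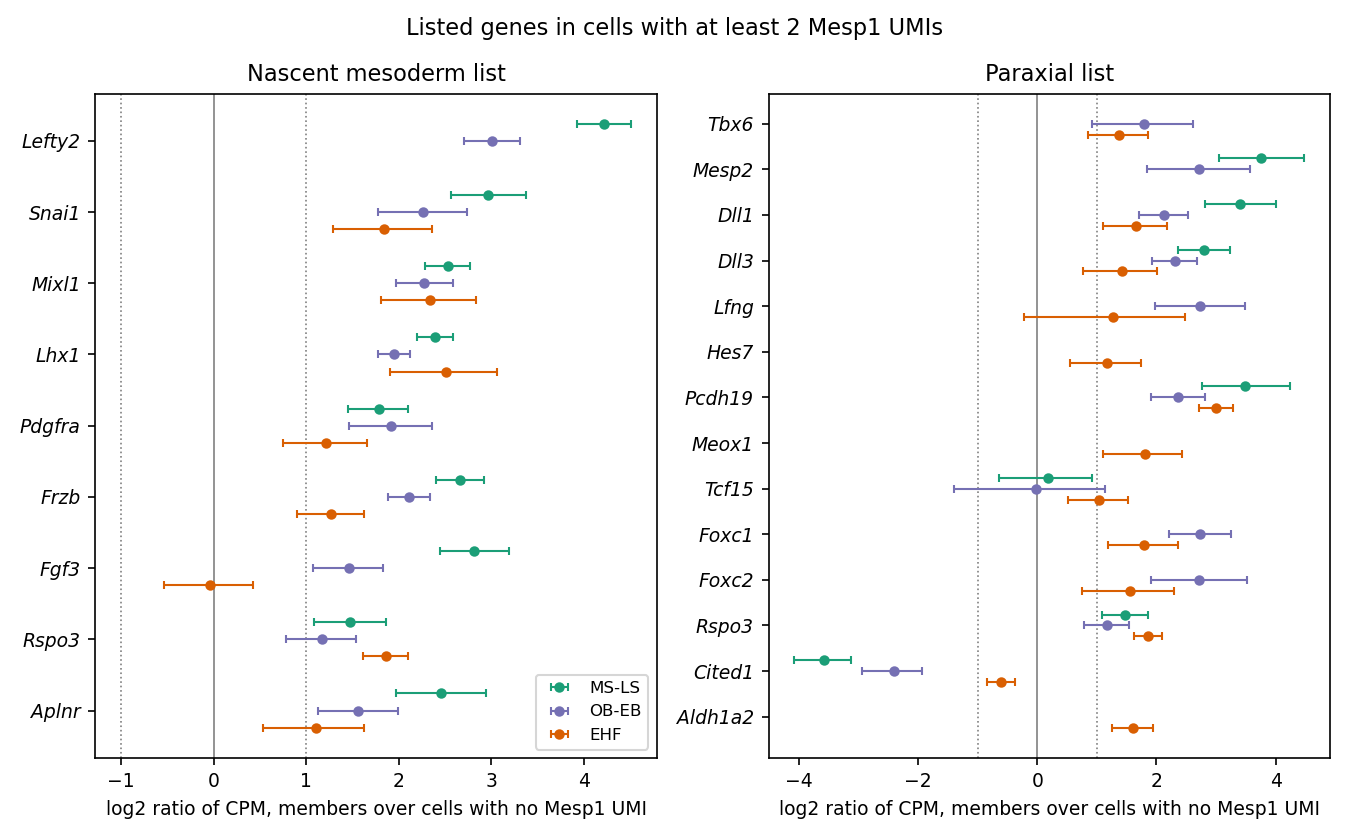
log2 ratio of CPM of Mesp1 cells over cells with no Mesp1 UMI for the genes of the nascent mesoderm and paraxial lists in each library, with exact 95% counting intervals, and dotted lines at a ratio of 2 and 1/2. Nascent mesoderm genes lie to the right of the line at 2 in every library except Fgf3 at EHF, and Cited1 lies to the left of 0 in the paraxial list.

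Of the streak genes 8 of 13 were higher past the fold and 2 lower at MS-LS (median 1.45), 6 of 12 and 0 at OB-EB (1.18), and 7 of 12 and 2 at EHF (1.12). The lower shares of this list were 15.4%, 0% and 16.7%, beside 11.3%, 8.03% and 11.0% of all genes. T (chromosome 17, 8434423 to 8442496), the streak factor from whose locus Cre was made, stood at 100 against 25.9 CPM at MS-LS (log2 ratio 1.95, 1.69 to 2.21), 241 against 67.5 CPM at OB-EB (1.83, 1.63 to 2.03) and 176 against 80.3 CPM at EHF (1.13, 0.86 to 1.40). Its ratio at EHF was 0.70 with the filtered comparison cells. Eomes (chromosome 9, 118478212 to 118486132) stood at 241 against 111 CPM at MS-LS (1.12, 0.96 to 1.27) and 92.1 against 49.1 CPM at OB-EB (0.91, 0.61 to 1.20). At EHF a single Eomes UMI was found in the Mesp1 cells, 1.41 against 16.0 CPM (−3.50, −8.81 to −1.02). Of the EHF cells with no Mesp1 UMI 13.4% had at least 3 extraembryonic ectoderm markers, and their part in this Eomes level was not tested.

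Tdgf1, the Nodal co-receptor, followed Eomes, with 361 against 104 CPM at MS-LS, 171 against 63.0 CPM at OB-EB and 2 UMIs in the EHF Mesp1 cells. Evx1, a homeobox gene of the posterior streak, had log2 ratios of 2.03 (1.35 to 2.67), 0.86 (0.03 to 1.63) and 2.93 (2.13 to 3.66), or 1.79, 0.62 and 2.42 with the filtered comparison cells. Fgf8, the streak FGF required for cells to leave it, had 0.76, 0.70 and 2.18 (1.77 to 2.57). Cdx2, a caudal homeobox gene that trophoblast cells also make, was lower in MS-LS Mesp1 cells at 5.40 against 19.9 CPM (−1.89, −2.96 to −0.99) and higher at EHF at 230 against 107 CPM (1.10, 0.86 to 1.33). These were −1.18 and 0.96 with the filtered comparison cells. Foxa2, a marker of the anterior streak and endoderm, was lower at MS-LS (−1.16, −1.73 to −0.64).

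Epiblast genes were lower or within the fold in the Mesp1 cells, and the list for the epithelial to mesenchymal transition, which holds genes of both states, was split. Of that list 7 of 14 genes were higher past the fold and 5 lower at MS-LS (median 0.24), 5 and 5 of 12 at OB-EB (−0.12), and 6 and 6 of 16 at EHF (−0.15). None of 15 epiblast genes was higher past the fold in any library, and 7, 10 and 12 were lower at MS-LS, OB-EB and EHF. Utf1, a chromatin factor of pluripotent cells, had log2 ratios of −2.37 (−2.73 to −2.03), −3.01 (−3.69 to −2.40) and −4.74 (−7.79 to −2.89, with 2 UMIs in the EHF Mesp1 cells), and −2.62, −3.12 and −3.41 with the filtered comparison cells. Sox2, which the epiblast keeps in its neural part, had −1.69, −2.89 and −2.50. Pou5f1, the Oct4 gene, did not follow them, with 496 against 459 CPM at MS-LS (0.11, 0.01 to 0.21), 266 against 404 CPM at OB-EB (−0.61, −0.77 to −0.45) and 272 against 237 CPM at EHF (0.20, −0.02 to 0.40). Cdh1, the epithelial cadherin, had −1.21, −1.92 and −2.11, whereas Cdh2, the mesenchymal cadherin, had 2.17 (1.93 to 2.42), 1.47 (1.24 to 1.69) and 1.84 (1.41 to 2.24). Fn1, the matrix protein fibronectin, stood at 301 against 65.4 CPM at MS-LS, 333 against 116 CPM at OB-EB and 547 against 160 CPM at EHF. The tight junction gene Cldn7 had −2.32, −2.94 and −3.63. Cdh1 and Cldn7 were also lower against the filtered comparison cells, at −0.85 and −1.78 at MS-LS.

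Cardiac genes were higher in the earlier Mesp1 cells. At MS-LS 5 of 6 cardiac genes with enough UMIs were past the fold (median 1.50) and at OB-EB 5 of 7 (1.31), while at EHF 4 of 17 were higher and 2 lower (0.16). More cardiac genes had enough UMIs at EHF, so these counts and medians cover different sets of genes. None of the lower genes at EHF had an interval that left out 0, and 11.0% of all genes were lower there. Higher past the fold were 2.98%, 2.22% and 4.57% of all genes at the 3 stages. Gata6, a GATA factor of cardiac mesoderm and endoderm, stood at 130 against 31.9 CPM at MS-LS (log2 ratio 2.03, 1.80 to 2.26), 60.2 against 24.2 CPM at OB-EB (1.31) and 28.2 against 23.4 CPM at EHF (0.27, −0.46 to 0.91). Myl7, an atrial myosin light chain found early in cardiac progenitors, stood at 186 against 53.9 CPM (1.79), 405 against 129 CPM (1.66) and 40.9 against 64.2 CPM (−0.65, −1.24 to −0.12). Myl7 was thus 3 times higher or more in the Mesp1 cells of the earlier stages and lower in those of EHF. Hand1, made in extraembryonic and lateral mesoderm, had 1.20, 0.30 and 1.20, and Isl1, a second heart field factor, stood at 42.3 against 8.43 CPM at EHF (2.33, 1.71 to 2.90).

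Genes of the paraxial and presomitic mesoderm were higher at all stages, and more of them could be read at EHF. On this list 5 of 7 genes were higher past the fold at MS-LS (median 2.80), 9 of 11 at OB-EB (2.31) and 12 of 13 at EHF (1.56), and 5 of 7, 7 of 10 and 8 of 13 with the filtered comparison cells. Mesp2 had 48 UMIs in MS-LS Mesp1 cells, 25.9 against 1.92 CPM (3.76, 3.05 to 4.48), 18.3 against 2.80 CPM at OB-EB (2.71, 1.84 to 3.57) and 8 UMIs at EHF. The ratio at MS-LS was 3.67 with the filtered comparison cells. The longest run shared by the Mesp1 and Mesp2 transcripts was 42 bases, and 9 bases within their last 500 bases, where the assay reads. Dll1, a Notch ligand, had 3.41 (2.82 to 4.01), 2.13 (1.71 to 2.53) and 1.66 (1.10 to 2.18), or 3.04, 1.98 and 1.20 with the filtered comparison cells, and Dll3 had 2.80, 2.31 and 1.42. Pcdh19, a protocadherin on the X chromosome (133582860 to 133688987), had 3.49 (2.76 to 4.24), 2.37 (1.92 to 2.81) and 3.01 (2.72 to 3.29), and 52.9% of EHF Mesp1 cells had a UMI against 7.92%. Its ratios were 2.95, 2.07 and 2.5 with the filtered comparison cells. Tbx6, the presomitic T-box factor, had 15 UMIs in MS-LS Mesp1 cells, 14.5 against 4.20 CPM at OB-EB (1.79, 0.91 to 2.61) and 52.1 against 20.1 CPM at EHF (1.37, 0.84 to 1.86). Aldh1a2, the enzyme that makes retinoic acid in the trunk, had 1 UMI in OB-EB Mesp1 cells and stood at 111 against 36.6 CPM at EHF (1.61, 1.25 to 1.94). Cited1 went the other way at MS-LS (−3.58) and OB-EB (−2.41).

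At EHF 2 of the caudal genes, Cdx4 and Cdx2, and most Hox genes with enough UMIs were higher past the fold in the Mesp1 cells. The related Cdx1 was not, at 189 against 165 CPM (log2 ratio 0.19, −0.07 to 0.44). Cdx4 (chromosome X, 103321398 to 103330592), a caudal factor of the late streak and allantois, had the highest ratio among genes found in at least 10% of the cells of 1 group, with 42 UMIs in 104 Mesp1 cells and 62 in 3221 others, 59.2 against 3.33 CPM (4.15, 3.55 to 4.74; 3.83 with the filtered comparison cells), and 28.8% against 1.68% of cells had a UMI. Of 17 Hox genes with enough UMIs 15 were higher past the fold and 14 had an interval above 0 (median 1.81), and 10 of 13 remained with the filtered comparison cells. Hoxd9 stood at 53.6 against 5.96 CPM (3.17, 2.60 to 3.71; 2.80 with the filtered comparison cells), Hoxb6 had 2.19 (1.56 to 2.78), Hoxd1 had 2.31 (1.64 to 2.92) and Hoxb1 stood at 138 against 47.0 CPM (1.56, 1.24 to 1.86). No Hox gene had enough UMIs at MS-LS, and at OB-EB Hoxb2 had 1.52 (0.83 to 2.17) and Hoxb1 1.12 (0.05 to 2.09).

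Extraembryonic mesoderm genes were mixed early and mostly higher at EHF, and haemato-endothelial genes were mostly lower at the later stages, with 2 of 6 higher and 2 lower at MS-LS, 0 and 4 of 6 at OB-EB, and 0 and 7 of 10 at EHF. Of the extraembryonic mesoderm list 4 of 10 genes were higher and 4 lower at MS-LS, 1 and 3 of 10 at OB-EB, and 7 and 3 of 12 at EHF. Bmp4, the BMP ligand of proximal tissues and the allantois, stood at 3.78 against 12.5 CPM at MS-LS (−1.72, −3.06 to −0.65), 11.4 against 17.6 CPM at OB-EB (−0.63, −1.50 to 0.14) and 107 against 31.2 CPM at EHF (1.78, 1.41 to 2.12). Its ratios at the 3 stages were −1.34, −0.52 and 1.86 with the filtered comparison cells. Foxf1, a forkhead factor of lateral and allantoic mesoderm, had 1.96 (1.43 to 2.48), 1.0 (0.54 to 1.45) and 2.42 (2.05 to 2.78). Kdr, the VEGF receptor of endothelial progenitors, stood at 60.5 against 14.0 CPM at MS-LS (2.11, 1.77 to 2.45), and had 0.70 at OB-EB and 0.25 (−0.61 to 0.99) at EHF. Lmo2, a partner of the blood programme, was lower at every stage (−0.88, −1.60 and −1.86), and at EHF the embryonic globin Hbb-bh1 had 8 UMIs in the Mesp1 cells, 11.3 against 270 CPM (−4.58, −5.79 to −3.60).

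Signalling genes were described in the same way. Of the Wnt list 8 of 13 genes were higher past the fold and 3 lower at MS-LS, 8 of 13 and 0 at OB-EB, and 5 of 16 and 0 at EHF. Wnt5a, a ligand of the planar polarity branch, had 3.18 (2.66 to 3.71), 1.93 (1.49 to 2.36) and 2.30 (1.75 to 2.81), or 2.71, 1.70 and 2.01 with the filtered comparison cells. Lef1, the nuclear partner of β-catenin, had 2.02, 1.62 and 1.86, and Rspo3, an enhancer of Wnt reception, had 1.48, 1.17 and 1.86. Axin2, a feedback target of β-catenin, had 0.52 (−0.10 to 1.10), 0.81 and 0.85. Of the Notch list 5 of 10, 5 of 11 and 7 of 12 were higher and 1, 1 and 0 lower. Hes1, a Notch target, stood at 1105 against 451 CPM at MS-LS (1.29, 1.22 to 1.37), 226 against 149 CPM at OB-EB (0.60) and 59.2 against 57.4 CPM at EHF (0.04, −0.44 to 0.49). Of the FGF list 3 of 15, 3 of 13 and 5 of 16 were higher and 2, 1 and 2 lower. The lower shares (13.3%, 7.69% and 12.5%) were near those of all genes (11.3%, 8.03% and 11.0%). Of the Nodal list 2 of 11, 2 of 8 and 2 of 8 were higher and 0, 0 and 1 lower. The lower shares of the Notch list (10%, 9.09% and 0%) and of the Nodal list (0%, 0% and 12.5%) were near or below those of all genes. Of the BMP list 1 of 13, 0 of 13 and 3 of 15 were higher and 2, 1 and 1 lower. The lower shares of this list (15.4%, 7.69% and 6.67%) were also near those of all genes. Higher genes made up 2.98%, 2.22% and 4.57% of all genes tested.

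Cyp26a1, which degrades retinoic acid, stood at 174 against 96.5 CPM at MS-LS (0.85, 0.67 to 1.02), 120 against 46.0 CPM at OB-EB (1.38, 1.11 to 1.65) and 15.5 against 31.6 CPM at EHF (−1.03, −2.04 to −0.18). Crabp1, which binds retinoic acid in the cytoplasm, had 1.69, 1.65 and 2.12. Id2, an inhibitor of helix-loop-helix factors that extraembryonic cells also make, was lower throughout (−2.22, −2.29 and −2.58), and less so against the filtered comparison cells (−1.28, −1.61 and −1.0). Cxcr4, a chemokine receptor of migrating mesendoderm, had 2.80 (2.33 to 3.26) at MS-LS and 1.81 (1.30 to 2.31) at OB-EB. Of 17 cell cycle genes 2, 0 and 1 were higher past the fold and none lower. Ccnd2 was among the 2 at MS-LS (2.14, 1.92 to 2.36), and Mki67 had −0.12, 0.04 and −0.02.

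The genes with the lowest ratios were those of tissues that the comparison cells include. All 12 visceral endoderm markers were lower past the fold in every library, and Ttr, a thyroid hormone carrier of the yolk sac, had −4.61, −4.01 and −3.23. The filtered comparison cells were chosen to lack these markers while the Mesp1 cells were not, so that comparison says nothing of visceral endoderm genes. The summed level of the 12 markers was 589, 477 and 554 CPM in Mesp1 cells and 9226, 7267 and 5610 CPM in the others, and the part of free RNA in the former was not tested. Of the extraembryonic ectoderm list 11 of 12, 6 of 7 and 11 of 12 genes were lower, with summed levels of 38.3, 19.0 and 15.5 CPM in Mesp1 cells. Lower counts past the fold were 6 of 9, 6 of 9 and 6 of 8 for definitive endoderm, 5 of 7, 5 of 6 and 6 of 9 for neuroectoderm, and 4 of 5, 4 of 5 and 5 of 7 for surface ectoderm. No gene of these lists was higher, where 2.98%, 2.22% and 4.57% of all genes were. Of the germ cell list 1 of 4 genes was higher and 2 lower at EHF.

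Across libraries 62 genes were higher past the fold at all 3 stages, of 8598 genes with enough UMIs in each. They made up 27.2%, 38.0% and 25% of the 228, 163 and 248 such genes at MS-LS, OB-EB and EHF. By the lowest of the 3 log2 ratios they were led by Pcdh19 (2.37), Rasgrp3 (2.34), a Ras activator, Mixl1 (2.28), and Pcdh8 (2.16), the paraxial protocadherin. Also among the 62 were Lhx1, Wnt5a, Snai1, Dll1, Dll3, Lef1, Fn1, Cdh2, Notch1, T, Foxf1 and Pdgfra. With the filtered comparison cells 58 of the 62 still had enough UMIs in every library and 28 remained higher past the fold in each. With comparison cells matched to the Mesp1 cells in total UMIs, which are far fewer, 34 had enough UMIs and 28 remained higher. A promoter entry was found for 48 of the 62, and 4 of them (8.33%, 2.32 to 20) held CACACCT (Rasgrp3, Lef1, Frzb and Gna14), against 6.72% of all promoters. CTTTGAT was held by 1 of the 48 (2.08%), Dclk1.

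Lists were also read cell by cell at 2000 UMIs, as the share of cells with UMIs of at least 2 genes of a list. Here and below at 2000 UMIs the Mesp1 cells were those chosen at full depth, so depth still affected which cells entered. After thinning 92, 143 and 17 of them kept 2 Mesp1 UMIs or more. The nascent mesoderm, paraxial and Wnt shares were higher in the Mesp1 cells of each library than in the cells with no Mesp1 UMI. UMIs of at least 2 of 9 nascent mesoderm genes, Mesp1 not counted, were found in 125 of 274 Mesp1 cells at MS-LS (45.6%, 39.6 to 51.7), 129 of 286 at OB-EB (45.1%, 39.2 to 51.1) and 27 of 102 at EHF (26.5%, 18.2 to 36.1), against 4.03%, 8.63% and 8.72% of cells with no Mesp1 UMI. For the paraxial list the shares were 8.76%, 18.9% and 49.0% in Mesp1 cells and 1.51%, 4.01% and 12.3% in the others. For the Wnt list they were 21.5%, 37.4% and 45.1% against 6.20%, 13.6% and 15.6%. For the Nodal list the order of the stages was the opposite, 21.2%, 10.1% and 1.96% against 6.83%, 5.06% and 3.25%. At least 2 Hox genes were found in 37 of 102 EHF Mesp1 cells (36.3%, 27.0 to 46.4) and in 9.68% of the others, but in 0 of 274 Mesp1 cells at MS-LS, which allows 1.09%, and 2 of 286 at OB-EB. For the epiblast list the Mesp1 cells had the lower shares, 58.8%, 49.0% and 38.2% against 78.8%, 69.9% and 54.4%.

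**Figure D3:**
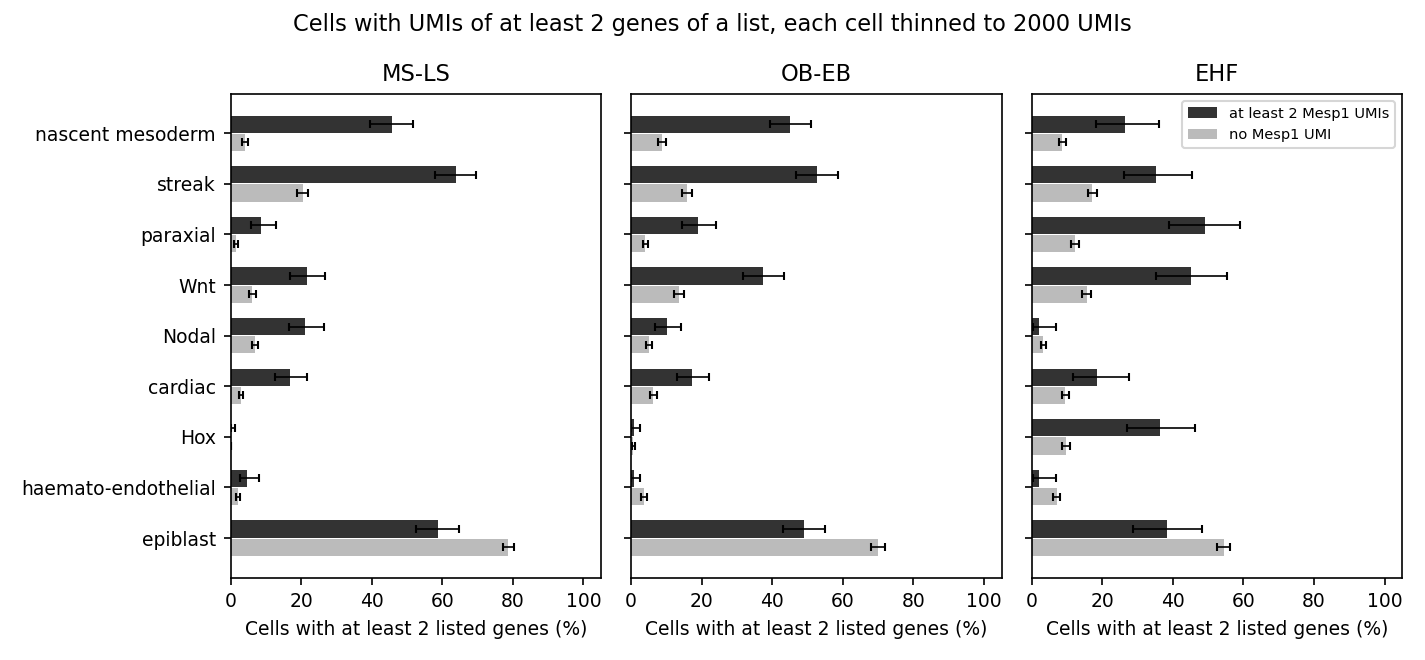
Share of cells (%) with UMIs of at least 2 genes of each list after thinning to 2000 UMIs, in Mesp1 cells and in cells with no Mesp1 UMI of each library, with exact 95% binomial intervals. Nascent mesoderm stood at 45.6% of Mesp1 cells at MS-LS and 26.5% at EHF, while the paraxial share stood at 8.76% and 49.0%.

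T-box classes of the Mesp1 cells differed between stages. At 2000 UMIs a UMI of Eomes without one of T was found in 25.5% of MS-LS Mesp1 cells, 13.3% at OB-EB and 0% at EHF, where 0 of 102 allows 2.94%. T without Eomes was found in 10.9%, 26.2% and 25.5%, both in 6.93%, 3.50% and 0%, and neither in 56.6%, 57.0% and 74.5%. Since a UMI can be missed at this depth, a cell with neither may still hold the transcript. In cells with no Mesp1 UMI, Eomes without T stood at 15.8%, 6.96% and 2.19% and T without Eomes at 3.15%, 7.53% and 10.0%.

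Levels within these classes differed for a few genes beyond counting error. At MS-LS Myl7 stood at 307 CPM (222 to 414) in the 70 cells with Eomes only and 83.3 CPM (27.1 to 194) in the 30 cells with T only. At OB-EB Mixl1 stood at 207 CPM (140 to 293) in the 75 cells with T only and 64.4 CPM (39.9 to 98.5) in the 163 cells with neither, and Myl7 stood at 167 CPM (108 to 246) and 607 CPM (526 to 698). Lhx1 at OB-EB stood at 487 CPM (343 to 671) with Eomes only and 233 CPM (163 to 325) with T only. At EHF Cdx1, a caudal gene, stood at 346 CPM (205 to 547) in the 26 cells with T only and 112 CPM (65.2 to 179) in the 76 cells with neither. Tdgf1 at MS-LS was similar in the 4 classes, between 395 and 417 CPM. The genes of this paragraph were picked once their values were known.

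The amount of Mesp1 in a cell went with a step between 0 and 1 UMI and smaller differences above it. Lefty2 at MS-LS stood at 9.80, 120, 171, 190 and 192 CPM in cells with 0, 1, 2, 3 and 4 or more Mesp1 UMIs, so cells just outside the rule already stood above the cells with none. Fn1 at MS-LS stood at 65.4, 224, 263, 345 and 318 CPM, and at EHF at 160, 395, 523, 582 and 567 CPM. Lhx1 at OB-EB stood at 82.0, 242, 326, 304 and 309 CPM. Cdh1 ran down, with 126, 73.3, 60.1, 49.1 and 51.0 CPM at MS-LS, while Pou5f1 stayed between 459 and 514 CPM. At MS-LS cells with more Mesp1 UMIs were also deeper, with medians of 4844, 5815.5, 6053 and 6632.5 UMIs for 2, 3, 4 and 5 or more UMIs. The rise was not steady at OB-EB (3045.5, 3987, 3595 and 4606.5 UMIs) or EHF (6202.5, 6609.5, 5935 and 6814 UMIs). The part of depth was not tested.

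**Figure D4:**
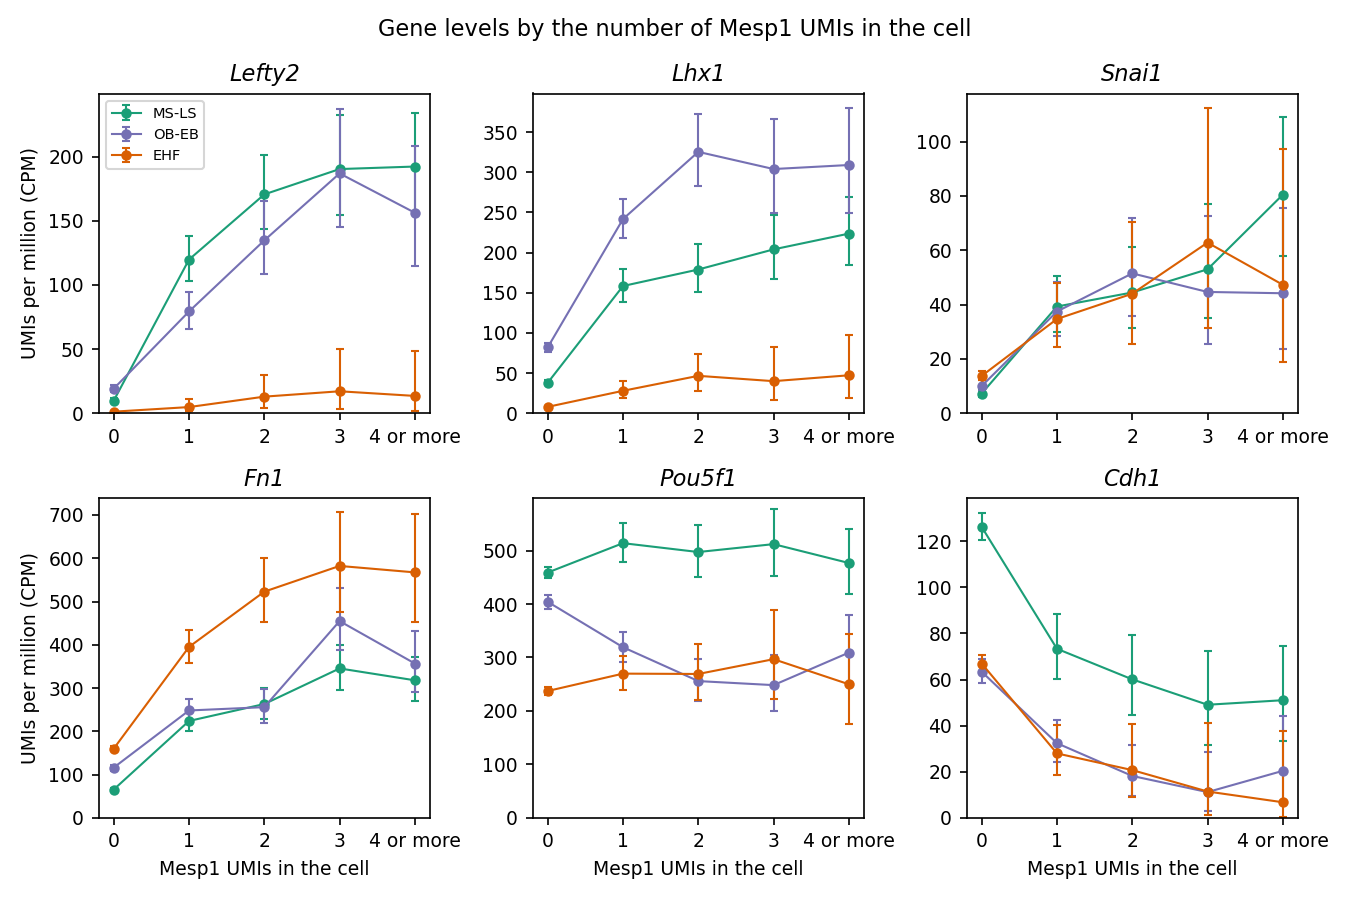
Level (CPM) of 6 genes in cells grouped by their number of Mesp1 UMIs in each library, with exact 95% Poisson intervals. Lefty2, Lhx1, Snai1 and Fn1 are lowest in cells with 0 UMIs, Cdh1 is highest there, and Pou5f1 at MS-LS stays between 459 and 514 CPM.

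Mesp1 cells were then compared between stages, with ratios in the cells with no Mesp1 UMI alongside, since libraries differed as wholes. MS-LS over EHF gave 314 of 4967 genes higher (6.32%; 305 or 6.14% with an interval that left out 0) and 412 lower (8.29%), OB-EB over EHF 360 of 4383 (8.21%) and 506 (11.5%), and MS-LS over OB-EB 165 of 5365 (3.08%) and 225 (4.19%). Higher and lower calls turned in number for both EHF comparisons when ratios were centred on the median gene (377 higher and 299 lower for MS-LS over EHF, 466 and 335 for OB-EB over EHF) and when Mesp1 cells were chosen after thinning to 2000 UMIs (170 and 77, 247 and 124). They also turned with at least 3 Mesp1 UMIs (246 and 221, 247 and 216) and with a minimum of 100 UMIs (197 and 179, 228 and 214). The median gene had log2 ratios of −0.13, −0.17 and 0.07 in these comparisons, and the ratios below are to be read relative to it. The same comparisons in cells with no Mesp1 UMI gave 4.85% and 13.3%, 6.04% and 16.6%, and 3.97% and 4.97%. Actb and Alyref, picked once their values were known, differed in both kinds of cells. Their log2 ratios for MS-LS over OB-EB were −2.57 and −3.69 in Mesp1 cells and −2.62 and −3.59 in the others. A difference of library and one of stage cannot be told apart here. The cells with no Mesp1 UMI were not filtered for these stage ratios. At least 3 extraembryonic ectoderm markers were found in 9.62%, 2.5% and 13.4% of them at MS-LS, OB-EB and EHF. The part of such cells in their ratios was not tested.

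The stage ratios here and below are of Mesp1 cells chosen at full depth. With cells chosen after thinning to 2000 UMIs, 27 of 29 listed or leading genes stayed past the fold for MS-LS over EHF. For OB-EB over EHF 31 of 31 did and for MS-LS over OB-EB 16 of 19, and none changed direction. Between MS-LS and EHF the Mesp1 cells differed in Eomes, higher at MS-LS, and in Cdx2, higher at EHF. Of 6 Nodal list genes 3 were higher at MS-LS past the fold (Tdgf1, Lefty2 and Cer1) and 2 lower (Acvr2b and Cfc1), with a median of 0.72. Eomes had 447 UMIs at MS-LS and 1 at EHF (log2 ratio 7.42, 4.93 to 12.73), against 2.80 (2.62 to 2.98) in cells with no Mesp1 UMI. Tdgf1 had 669 UMIs and 2 (7.00, 5.14 to 10.05), against 6.40. Lefty2 had 3.69 (2.79 to 4.76) against 2.99, Hes1 4.22 (3.78 to 4.70) against 2.97, and Cyp26a1 3.49 (2.63 to 4.50) against 1.61. Of the cardiac list, Gata6 had 2.21 (1.55 to 2.94) against 0.45 (0.25 to 0.64) and Myl7 2.18 (1.64 to 2.78) against −0.25 (−0.38 to −0.12). Kdr had 1.52 (0.73 to 2.40) against −0.35 (−0.61 to −0.09). For Eomes, Hes1, Cyp26a1, Gata6, Myl7 and Kdr the interval in the Mesp1 cells lay above that in the others, whereas for Tdgf1 and Lefty2 the intervals overlapped. Of 10 epiblast genes 8 were higher at MS-LS (median 2.13) and 1 lower, and in the cells with no Mesp1 UMI 5 of the same 10 were higher and 1 lower.

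In the other direction Cdx2 had 10 UMIs at MS-LS and 163 at EHF, 5.40 against 230 CPM (−5.41, −6.50 to −4.49), against −2.43 (−2.61 to −2.25) in cells with no Mesp1 UMI. Bmp4 had −4.82 (−6.19 to −3.71) against −1.32 (−1.57 to −1.08), and Dlk1, a non-canonical Notch ligand of the allantois and trunk mesoderm, −4.95 (−6.44 to −3.76) against −1.77 (−1.99 to −1.55). Hoxb1 had 7 UMIs at MS-LS and 98 at EHF (−5.19, −6.54 to −4.09), against −6.84 (−8.29 to −5.71) in the others. Of the extraembryonic mesoderm list all 9 genes with enough UMIs were lower at MS-LS than at EHF (median −2.28), and of the paraxial list 6 of 9 (−2.46). In the cells with no Mesp1 UMI 7 of the same 9 genes of each list were lower. Crabp1 had −3.14 (−3.58 to −2.73) and Pcdh19 −3.15 (−3.70 to −2.63), against −2.71 and −3.63 in the cells with no Mesp1 UMI. Aldh1a2 had 1 UMI at OB-EB and 79 at EHF (−7.19, −12.5 to −4.67), against −6.82 in the others.

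Of 9 nascent mesoderm genes 3 were higher past the fold and 1 lower for MS-LS over EHF (Lefty2, Lhx1 and Mixl1, and Rspo3), and 4 and 1 for OB-EB over EHF. The higher shares were 33.3% and 44.4%, against 6.32% and 8.21% of all genes. The lower share was 11.1% in both comparisons, near the 8.29% and 11.5% of all genes. The genes described next were among those not past the fold. Snai1 stood at 56.7, 48.0 and 49.3 CPM in the Mesp1 cells of MS-LS, OB-EB and EHF, and MS-LS over EHF was 0.20 (−0.36 to 0.80), against −0.92 (−1.26 to −0.59) in the cells with no Mesp1 UMI. Pdgfra stood at 62.6, 49.5 and 64.8 CPM (−0.05, −0.55 to 0.48), against −0.61 (−0.83 to −0.40). Fgf3 stood at 63.2, 64.7 and 55.0 CPM (0.20, −0.33 to 0.76), although in the cells with no Mesp1 UMI it stood at 8.98, 23.6 and 56.4 CPM (−2.65, −2.92 to −2.39). For these genes the levels in Mesp1 cells could not be told apart between the first and last stage by counting error. Lhx1 stood at 198, 316 and 45.1 CPM and Mixl1 at 132, 114 and 56.4 CPM, both lower at EHF.

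Between the earlier stages the differences were smaller, and none of 9 nascent mesoderm genes was past the fold (median −0.03). Eomes was higher at MS-LS by a log2 ratio of 1.39 (1.10 to 1.69), against 1.18 in the others, and Hes1 by 2.29 (2.11 to 2.47), against 1.59. T was lower at −1.26 (−1.53 to −0.99), against −1.38, and so were Foxc1, a forkhead factor of paraxial and cranial mesoderm, at −1.67 (−2.36 to −1.0), against −2.91, Lef1 at −1.07, against −1.47, and Myl7 at −1.12, against −1.26. Cdh1 was higher at MS-LS by 1.70 (1.03 to 2.44), against 0.99. For Eomes, T, Foxc1, Lef1, Myl7 and Cdh1 the intervals in both kinds of cells overlapped. For Hes1 they did not (1.51 to 1.68 in the others).

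**Figure D5:**
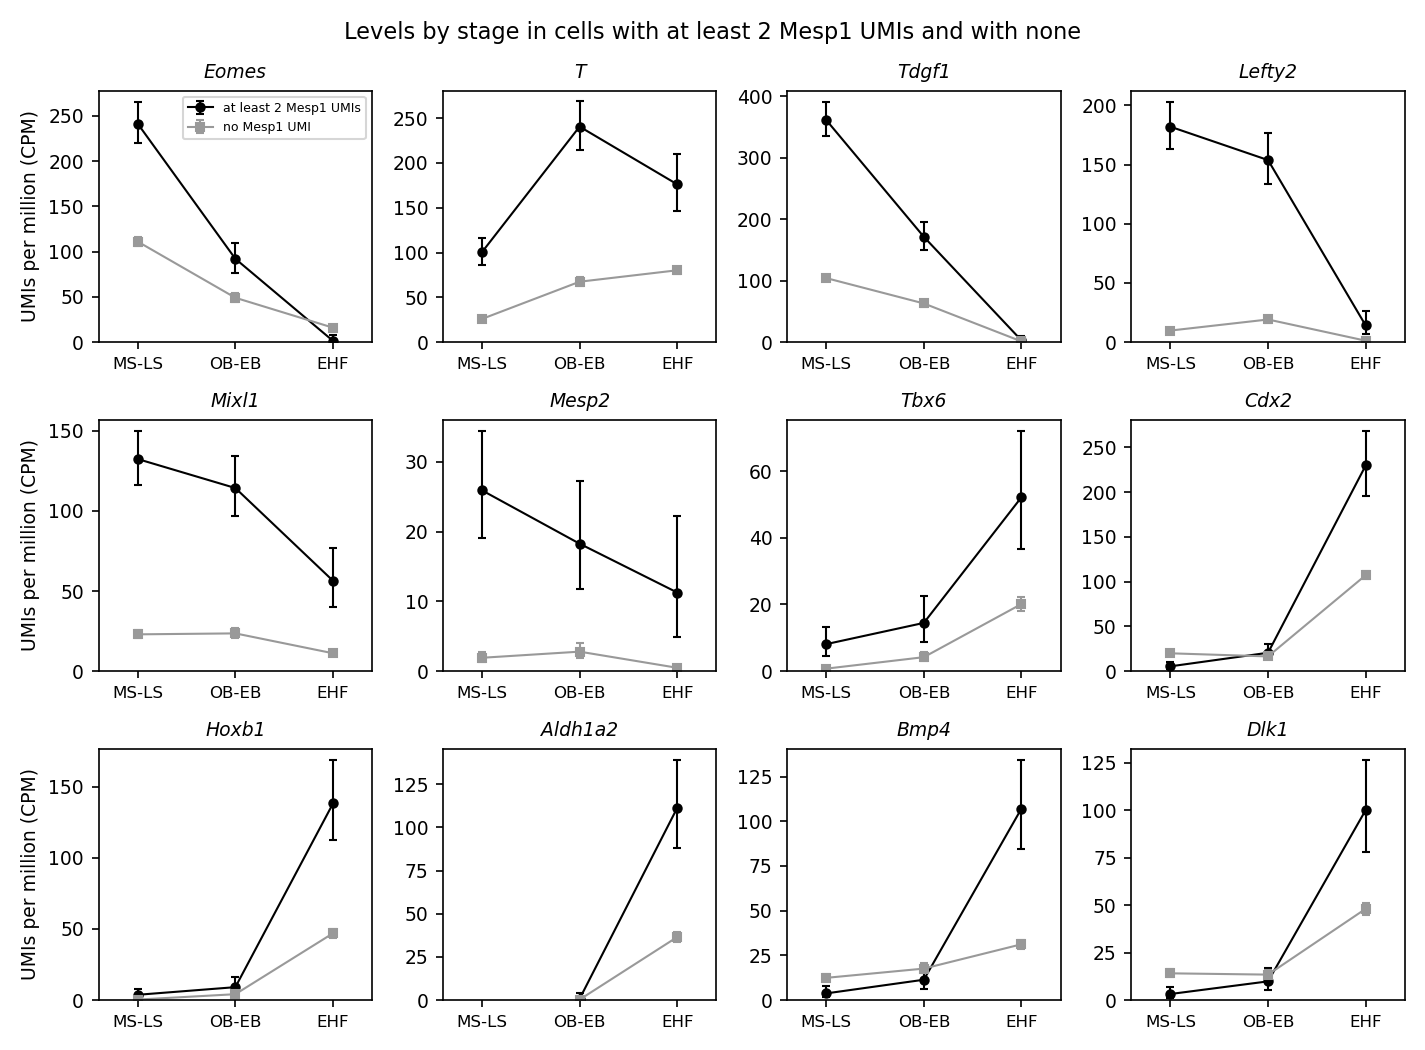
Level (CPM) of 12 genes at each stage in Mesp1 cells and in cells with no Mesp1 UMI, with exact 95% Poisson intervals. In Mesp1 cells Eomes stood at 241, 92.1 and 1.41 CPM, and Cdx2 at 5.40, 20.6 and 230 CPM. No point is drawn for Aldh1a2 at MS-LS.

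The share of cells with a UMI was also compared at equal depth, again in Mesp1 cells chosen at full depth. Tdgf1 was found in 148 of 274 MS-LS Mesp1 cells (54.0%, 47.9 to 60.0), 71 of 286 at OB-EB (24.8%, 19.9 to 30.3) and 0 of 102 at EHF. Lefty2 was found in 21.2%, 18.2% and 0%, and Eomes in 32.5%, 16.8% and 0%. Cdx2 was found in 0.73% (0.09 to 2.61), 3.85% (1.94 to 6.78) and 35.3% (26.1 to 45.4), and Hoxb1 in 0.73%, 2.45% and 24.5%. Fn1 was found in 41.2%, 40.9% and 52.9%, against 10.9%, 18.5% and 22.8% of cells with no Mesp1 UMI. Lef1 was found in 21.2%, 33.6% and 33.3%.

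The tdTomato reporter, read as UMIs of its WPRE-containing transcript, was carried by 19 of 283 MS-LS Mesp1 cells (6.71%, 4.09 to 10.3), 16 of 330 at OB-EB (4.85%, 2.80 to 7.75) and 48 of 104 at EHF (46.2%, 36.3 to 56.2). In the cells with no Mesp1 UMI the shares were 1.47%, 2.97% and 9.38%, and in extraembryonic ectoderm cells 0.98%, 0% of 83 cells (which allows 3.61%) and 1.38%. The log2 ratio of levels was 1.85 (1.05 to 2.61) at MS-LS, 0.33 (−0.51 to 1.08) at OB-EB and 2.36 (1.99 to 2.71) at EHF. It rested on 22, 17 and 79 reporter UMIs in the Mesp1 cells. At 2000 UMIs the shares in Mesp1 cells were 1.82%, 1.05% and 24.5%, against 0.77%, 2.20% and 5.13%. Only 5, 3 and 25 Mesp1 cells then had a reporter UMI. The intervals of both groups overlapped at MS-LS (0.60 to 4.21 against 0.48 to 1.17) and at OB-EB (0.22 to 3.03 against 1.64 to 2.89). At OB-EB the Mesp1 cells had the lower share at this depth. Tamoxifen preceded dissection by a different time at each stage, so reporter shares at different stages were not compared.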

How the data were processed

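Single-cell libraries of whole gastrulae at 3 stages were analysed, 1 library of pooled embryos per stage. The authors prepared Chromium 3′ libraries, counted UMIs with Cell Ranger 3.0.2 against GRCm38 (with reporter sequences added), dropped shallow cells and those rich in mitochondrial transcripts, and deposited whole-number counts per gene and cell, without normalization. R 3.6.1 and Seurat 3 are also in the submitters' processing notes. No column of another sample was present.

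Mesp1 cells were those with at least 2 Mesp1 UMIs. UMIs were summed over the cells of a group and given per 1000000 (CPM) with exact Poisson 95% intervals, ratios with exact conditional intervals and shares with Clopper-Pearson intervals. These cover counting error only. Cells are not replicates, so no test, p-value or SE was computed. Genes needed 50 UMIs over both groups, and a group with no UMI was set to a floor of 3 UMIs. Equal depth means 1 random draw of 2000 UMIs per cell (seed 1), without shallower cells.

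Members and gene lists were chosen with earlier results of these data known. Genes named are the listed genes and the 10 with the largest ratios in each direction among genes found in at least 10% of the cells of 1 group, without mitochondrial, ribosomal protein, sex-linked marker and reporter features, plus those said to be chosen afterwards. Doublets were kept. Scrublet marked 6, 0 and 13 cells (0.165%, 0% and 0.372%), none a Mesp1 cell, and was not relied on. An alternative left out its top-scoring 5%, which held 29, 18 and 9 Mesp1 cells (10.2%, 5.45% and 8.65% of them). Steps were tested on simulated data and run in Python 3.11.15 with numpy 2.4.6, scipy 1.17.1, pandas 2.3.3, scanpy 1.11.5 and matplotlib 3.10.9. Positions are from GENCODE vM21, promoters from RefSeq. Values of 1 listed gene are not reported here.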

Additional observations from a re-analysis of the deposited data

Results flagged for a closer look

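Some genes stood on opposite sides of the cells with no Mesp1 UMI at different stages. Each stage is 1 library, so the difference was not tested. Bmp4 had a log2 ratio of −1.72 at MS-LS and 1.78 at EHF. Cdx2 had −1.89 at MS-LS and 1.10 at EHF. Dlk1 had −2.12 at MS-LS and 1.06 at EHF. Eomes had 1.12 at MS-LS and −3.50 at EHF, the latter from 1 UMI. Cyp26a1 had 1.38 at OB-EB and −1.03 at EHF.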

How the results depend on the processing

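No paired analysis was possible because each stage is 1 library, and for the same reason no replicate could be left out. The threshold sets how many cells count as Mesp1 cells. With at least 1 UMI they were 15.6%, 20.9% and 7.81% of MS-LS, OB-EB and EHF cells, with at least 3 UMIs 4.04%, 3.46% and 1.32%, and 9.73% of OB-EB cells of at least 2000 UMIs. At equal depth the share was 1.56% and 3.21% at MS-LS and OB-EB with 1500 UMIs, 5.05%, 8.52% and 1.61% with 3500 UMIs, and 9.46%, 16.4% and 3.83% with at least 1 UMI after thinning to 2000. OB-EB had the highest share at each of these depths. Genes higher past the fold numbered 174, 109 and 129 with comparison cells matched in total UMIs, 526, 439 and 901 with a minimum of 20 UMIs, and 165, 101 and 296 with 100. They numbered 306 at OB-EB and 833 at EHF with at least 3 Mesp1 UMIs, 312 at EHF with at least 1, and 330 at EHF with the filtered comparison cells. Genes lower numbered 339, 342 and 644 with the filtered comparison cells, 466 and 286 at OB-EB and EHF with matched cells, and 1157 and 389 at OB-EB with minimums of 20 and 100 UMIs. Fewer genes enter with a higher minimum or fewer cells. Between stages the counts past the fold were, for MS-LS over OB-EB, 239 from members thinned to 2000 UMIs (77 higher and 162 lower, 32.2% higher against 42.3%), 794 with a minimum of 20 UMIs and 230 with 100. For OB-EB over EHF they were 371 after thinning (66.6% higher against 41.6%), 1327 with at least 1 and 463 with at least 3 Mesp1 UMIs (53.3% higher), and 1683 and 442 with minimums of 20 and 100 UMIs (51.6% higher with 100). For MS-LS over EHF they were 247 after thinning (68.8% higher against 43.3%), 467 with at least 3 Mesp1 UMIs (52.7% higher), and 1534 and 376 with minimums of 20 and 100 (52.4% higher with 100). Centring on the median gene made 58.2% and 55.8% of the calls of the EHF comparisons higher. Which of higher and lower calls were more numerous therefore depended on these settings for the EHF comparisons, while for MS-LS over OB-EB lower calls were more numerous in each alternative run. Shares of cells moved with depth. With at least 2 nascent mesoderm genes they were 29.2% and 36.6% at MS-LS and OB-EB with 1500 UMIs and 67.7%, 78.1% and 55.4% with 3500. With at least 2 paraxial genes they were 35.0% at EHF with 1500 and 19.5%, 34.2% and 65.2% with 3500. Eomes only was 19.9% and 42.9% at MS-LS with 1500 and 3500 UMIs and 9.46% at OB-EB with 1500, and T only was 18.6% and 32.3% at OB-EB and 37.0% at EHF with 3500. With the filtered comparison cells, chosen to lack extraembryonic markers, 195 of 314, 193 of 284 and 232 of 385 listed or leading genes past the fold at MS-LS, OB-EB and EHF stayed past it, and 20, 7 and 21 changed direction. Since the filter was set on these markers in the comparison cells alone, it fixed the values of Ttr and Apoa1, where Ttr had 0.34 and Apoa1 0.49 at MS-LS and 1.46 and 1.47 at EHF.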
